A study of Mus musculus with 12 samples.

Results

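The genes described are 57 named genes of the G1/S transition and of DNA replication, chosen by symbol from a fixed list and taken from the 51826 genes in the count files. All 57 were found, and all 57 passed the filter on low counts that left 10477 genes for testing. Their transcripts were counted by 3′ mRNA sequencing (QuantSeq FWD, which reads the end of polyadenylated transcripts), with 12 libraries from a B cell lymphoma line of the mouse. The cells carried RPL12 as WT, S38A or S38D, where serine 38 of this ribosomal protein is replaced by alanine, which cannot be phosphorylated, or by aspartate, which carries a negative charge. Each line was sampled asynchronous or mitotic, with 2 libraries in each of the 6 groups. All groups share the parental line 19PP, established from a Rag2-/-γC-/- mouse that had received bone marrow of the genotype Cγ1-Cre; Myc/P110*flSTOP, and its subline 19DN, from which Flp recombinase had removed the GFP and hCD2 reporters. Mitotic cells were held in nocodazole, a drug that prevents microtubule assembly, at 100 ng/mL for 8 h and then released into fresh medium for 10 min. All cells were collected in cycloheximide, which stalls ribosomes, and RNA came from cleared polysome lysates. How the mutant lines were made and whether each is 1 clone is not given in the sources used here. Cell state and drug treatment cannot be told apart, because the titles name nocodazole for the mitotic libraries only.

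Reads assigned to genes ranged from 3432875 to 6587997 per library (median 5548100). All 8 B cell markers were tested, with a summed level of 1547 to 2323 CPM (the read count scaled to library size) in mitotic and 2579.9 to 3619.7 CPM in asynchronous libraries, and the part of this shift in the results by state was not tested. Of 7 T cell markers 6 had no read in any library, as did 3 of 6 myeloid and 2 of 5 stromal markers. Asynchronous S38D and mitotic WT stood apart in the agreement of their replicates. In asynchronous S38D, 7.56% of all tested genes differed by more than 1 on the log2(CPM + 1) scale between the replicates, and in mitotic WT 3.8% did, against at most 1.09% in the other 4 groups. Reads of the ERCC spike-ins, synthetic RNAs added to every sample before library preparation, equalled 2.5% ± 0.293 of gene reads in asynchronous WT (SD, n = 2), against group means from 3.09% to 3.4% elsewhere. The spike-in share was 2.705% and 2.29% in the asynchronous WT libraries and 2.831% in S38D asynchronous replicate 2. Its SD was 0.361 in asynchronous and 0.287 in mitotic S38D. Levels below are CPM scaled with TMM factors, which set libraries equal over the bulk of genes. For comparisons of states and of lines, counts under spike-in scaling are given as well. No source says that the 2 libraries of a group came from separate cultures, so p-values measure only the spread between these libraries, which may be technical.

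DNA replication begins in G1, when the origin recognition complex, CDC6 and CDT1 load the MCM2-7 helicase onto chromatin. At the G1/S transition E2F transcription factors turn on these loading factors together with the polymerases, the PCNA sliding clamp, its RFC loader and the enzymes that make deoxynucleotides. Kinases then fire origins by adding CDC45 and GINS to MCM2-7, while claspin and its partners protect the moving fork and UHRF1 with DNMT1 copies DNA methylation onto the new strand. Rapidly dividing B cells and B cell lymphomas express this programme strongly.

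The promoters of 4 genes are shown because these were the 4 with the smallest adjusted p in the comparison of mitotic with asynchronous libraries among the genes described library by library. Each sequence runs from 250 bases before to 50 after a RefSeq transcript start (GRCm38.p6) and is written 5′ to 3′ on the gene's strand, with matches to E2F motifs in capitals. Pclaf encodes a PCNA-associated factor and is shown at chr9:65890073-65890372 on the plus strand. Clspn, for claspin, is at chr4:126556730-126557029 on the plus strand. E2f2, for an activating E2F, is shown for the first of its 2 starts at chr4:136172024-136172323 on the plus strand. Rfc1, for the large subunit of the clamp loader, is at chr5:65335590-65335889 on the minus strand.
Pclaf: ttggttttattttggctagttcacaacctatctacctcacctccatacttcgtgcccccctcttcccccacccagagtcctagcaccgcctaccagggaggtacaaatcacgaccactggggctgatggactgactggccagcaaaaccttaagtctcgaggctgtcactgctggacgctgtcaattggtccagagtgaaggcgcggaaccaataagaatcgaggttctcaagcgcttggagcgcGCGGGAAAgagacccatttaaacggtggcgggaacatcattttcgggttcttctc
Clspn: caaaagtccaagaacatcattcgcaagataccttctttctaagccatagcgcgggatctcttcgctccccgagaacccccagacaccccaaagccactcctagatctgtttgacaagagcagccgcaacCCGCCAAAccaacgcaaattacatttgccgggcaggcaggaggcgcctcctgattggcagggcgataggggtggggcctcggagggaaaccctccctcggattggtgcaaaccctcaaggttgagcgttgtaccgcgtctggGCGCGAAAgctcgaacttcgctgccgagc
E2f2: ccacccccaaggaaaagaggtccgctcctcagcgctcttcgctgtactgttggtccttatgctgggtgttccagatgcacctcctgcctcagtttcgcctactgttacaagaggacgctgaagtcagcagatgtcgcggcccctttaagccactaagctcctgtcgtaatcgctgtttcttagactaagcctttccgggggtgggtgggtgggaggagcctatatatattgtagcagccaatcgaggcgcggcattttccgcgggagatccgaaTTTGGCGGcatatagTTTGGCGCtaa
Rfc1: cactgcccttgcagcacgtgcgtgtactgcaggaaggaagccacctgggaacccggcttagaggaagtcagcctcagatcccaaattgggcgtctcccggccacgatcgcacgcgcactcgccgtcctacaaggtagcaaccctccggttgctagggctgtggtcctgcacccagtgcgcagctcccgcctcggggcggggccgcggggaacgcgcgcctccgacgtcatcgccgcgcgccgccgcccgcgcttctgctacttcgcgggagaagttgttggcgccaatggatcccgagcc

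The 6 motifs searched on both strands were TTTCCCGC, TTTGGCGC, TTTCGCGC, TTTGCCGC, TTTGGCGG and TTTCCCGG, which share letters with each other. In Pclaf 1 match began 5 bases upstream of the start and ran across it. In Clspn 1 began 121 bases upstream and 1 began 21 bases downstream, and in E2f2 matches began 24 and 39 bases downstream. Rfc1 held none in this window. RefSeq windows were found for 48 of the 57 genes, with 58 windows in all. An E2F match was present in 39.7% of these windows (23 of 58) and in 3.98% of all 32851 promoter windows of this length. The windows of the 57 genes had a median GC content of 60.7%, against 52.7% for all windows. CCAAT, a motif bound by NF-Y, was present in 58.6% against 37.4%, and the CHR motif of late cell cycle genes (TTTGAA or TTTAAA) in 29.3% against 27.6%. These matches describe letters in the window, and whether a factor binds there was not measured.

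Mitotic libraries were compared with asynchronous ones first, over the mean of the 3 lines. Of the 57 genes 29 fell and 4 rose, with a median log2 fold change of -0.33. Over all 10477 genes 21.6% fell and 20.5% rose, with a median of -0.02. Calls are edgeR quasi-likelihood tests with a Benjamini-Hochberg adjusted p under 0.05 over all genes. In 5 genes (Pcna, Pclaf, Rfc2, Tk1 and E2f2) all 6 mitotic libraries lay below all 6 asynchronous ones, and in no gene did all lie above. Over all genes 4.84% lay wholly below and 5.79% wholly above. Within a single line, with 2 libraries in each state, such separation was common. In WT 34.8% of all genes lay wholly below and 32.1% wholly above. These shares were 30.8% and 31.6% in S38A and 30.7% and 28.3% in S38D. Of the 57 genes 35 lay below and 7 above in WT, 31 and 12 in S38A, and 33 and 5 in S38D. The genes described library by library below were chosen by adjusted p in these same libraries. Separation of the states in those genes is therefore no separate support. The share of all genes separated in every line was not counted. Since these are bulk samples, fewer cells of a kind and less RNA per cell cannot be told apart. Scaled to the spike-ins, 34 fell, which included the same 29, and none rose (31.9% and 9.88% of all genes), with a median of -0.51 against -0.20 for all genes. The 5 added genes were Cdt1, Mcm2, Mcm4, Tyms and Chaf1a. Of genes called on neither scale, Dbf4, Gins4, Rfc5, Rpa2, Pole, Tipin and Exo1 had positive changes with TMM and negative ones with spike-in scaling, and Gins2 went from 0.00 to -0.19. The count of genes that rose was 7 without S38D asynchronous replicate 2. The genes that fell numbered 24 to 33 with any single library left out. Of the 23 genes with an E2F match in the promoter window 16 were called lower and 1 higher in mitotic libraries, and of the 25 without one 11 were lower and 3 higher. For CCAAT 20 of 30 genes with a match were lower and 3 higher, against 7 and 1 of 18 without, and for CHR 8 of 15 were lower and 2 higher, against 19 and 2 of 33. Whether any of these motifs is linked to the calls was not tested.

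**Figure D1:**
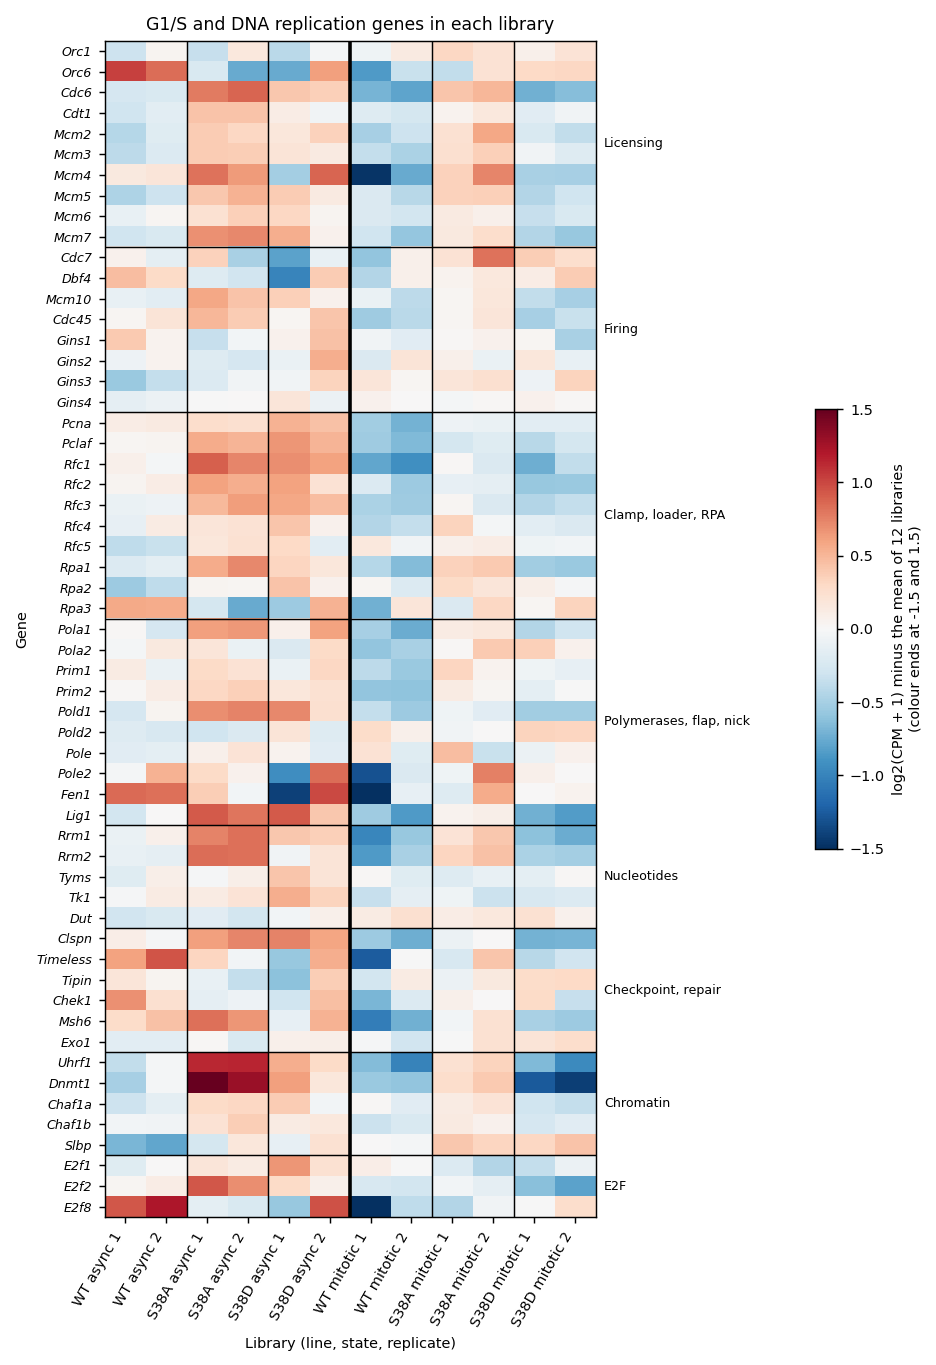
Each row is 1 of the 57 genes, grouped by role, and each column 1 of the 12 libraries; the colour is log2(CPM + 1) minus the gene's mean over the libraries, limited to -1.5 and 1.5. Asynchronous S38A libraries are red for most genes, mitotic WT and S38D libraries are mostly blue, and S38D asynchronous 1 and WT mitotic 1 show deep blue cells at Fen1 (39.3 and 27.4 CPM).

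Among the 10 licensing genes, which load the helicase in G1, 5 fell and none rose. The counts by role, here and below, stand beside 21.6% of all genes that fell and 20.5% that rose. Cdc6, the ATPase that brings MCM2-7 to the origin (chromosome 11, 98907801 to 98923940, GRCm38), stood at 61.2 and 62.6 CPM in asynchronous WT, 126 and 135 in S38A and 97.1 and 94 in S38D. Its mitotic level was 45 and 42.1 CPM in WT, 98 and 104 in S38A and 44.1 and 46.7 in S38D. Within each line both mitotic libraries were below both asynchronous ones, while over the lines the states overlapped because mitotic S38A exceeded asynchronous WT. The mean change was -0.65 (SE 0.0681, adjusted p = 1.56e-06). Mcm7, a helicase subunit, went from 127 and 133 CPM in asynchronous WT, 253 and 259 in S38A and 228 and 164 in S38D to 127 and 104, 174 and 188, and 115 and 105 in the mitotic libraries of these lines. The WT libraries of the 2 states overlapped for Mcm7 and those of the mutant lines did not, with a mean change of -0.50 (SE 0.0827, adjusted p = 0.000144). Its last 500 bases overlap Cops6 on the opposite strand, and as the strand of the counting is not given, reads of the pair cannot be told apart. The other subunits that fell were Mcm3 (-0.16), Mcm5 (-0.22) and Mcm6 (-0.29). Mcm2 (-0.20, adjusted p = 0.054), Mcm4 (-0.75, adjusted p = 0.0595) and the loader Cdt1 (-0.16, adjusted p = 0.0505) did not pass. Scaled to the spike-ins these were called lower, at -0.38 (adjusted p = 0.0173), -0.95 (adjusted p = 0.0474) and -0.34 (adjusted p = 0.00368), which made 8 of the 10 licensing genes lower. On this scale 31.9% of all genes were lower.

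Of the 8 firing genes 2 fell and 1 rose, beside 21.6% and 20.5% of all genes. Their median change was 0.02, against -0.02 for all genes. Cdc45, which joins MCM2-7 and GINS in the active helicase, stood at 59.2 and 66.3 CPM in asynchronous WT, 82.1 and 75.7 in S38A and 58.9 and 77.6 in S38D, and at 39.5 and 43.4, 58.9 and 65.6, and 40.6 and 45.7 CPM in the mitotic libraries. It was lower in both mitotic libraries of every line, with a change of -0.53 (SE 0.0872, adjusted p = 0.000134). Mcm10, a factor of helicase activation, changed by -0.40 (SE 0.0885, adjusted p = 0.00192), with 41.5 and 40.2 CPM in asynchronous WT, 67.3 and 60.4 in S38A and 57.8 and 47 in S38D. Mitotic libraries gave 41.6 and 33.8, 45.9 and 50.5, and 34.6 and 31.5 CPM, so WT overlapped and both mutant lines did not. No GINS subunit was called lower. Gins3 stood at 19.6 and 22.7 CPM in asynchronous WT, 25.4 and 28.3 in S38A and 28.2 and 37.3 in S38D, and at 33.4 and 30.1, 33.4 and 34.9, and 27.8 and 37.3 CPM in mitotic libraries. The states overlapped in S38D alone, and the mean rise was 0.31 (SE 0.107, adjusted p = 0.0261). The call was lost under spike-in scaling (adjusted p = 0.484) and with DESeq2 (adjusted p = 0.0942). It was also lost without WT asynchronous replicate 1 (0.0906), S38A asynchronous replicate 1 (0.072), WT mitotic replicate 1 (0.0639), S38A mitotic replicate 2 (0.0561) or S38D mitotic replicate 2 (0.118). The 3′ end of Gins2 overlaps Gse1 on the opposite strand. Gins1 (-0.22), Gins2 (0.00) and Gins4 (0.04) were not called, nor was the kinase Cdc7 (0.39, adjusted p = 0.149) or its activator Dbf4 (0.07).

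The clamp and its loader had 7 of 10 genes lower and none higher. Pclaf stood at 392 and 395 CPM in asynchronous WT, 566 and 547 in S38A and 607 and 548 in S38D, and at 265 and 243, 319 and 338, and 287 and 319 CPM in mitotic libraries, without overlap of the states. The mean log2 change was -0.77 (SE 0.0606, adjusted p = 7.52e-08), with -0.63 in WT, -0.76 in S38A and -0.93 in S38D, each called. Pcna, the clamp itself, ranged from 73.9 to 99 CPM and from 41.5 to 64.7 CPM, also without overlap, a change of -0.58 (SE 0.0699). Rfc1 stood at 53.2 and 49.3 CPM in asynchronous WT, 94.5 and 84.3 in S38A and 82.1 and 76.7 in S38D, and at 28.9 and 26.1, 50.8 and 42.9, and 29.9 and 38.8 CPM in mitotic libraries. It changed by -1.01 (SE 0.0884, adjusted p = 2.36e-07), and both mitotic libraries lay below both asynchronous ones in every line. Of the small loader subunits Rfc2 (-0.71), Rfc3 (-0.66) and Rfc4 (-0.31) fell, while Rfc5 changed by 0.06 (SE 0.0753, adjusted p = 0.578), or by -0.12 with spike-in scaling. In RPA, the trimer that coats single-stranded DNA, Rpa1 fell by 0.47 (SE 0.0655) and Rpa2 (0.12, or -0.06 with spike-in scaling) and Rpa3 (-0.03) were not called. Rpa1 stood at 144 and 150.2 CPM in asynchronous WT, 246 and 274 in S38A and 208 and 187 in S38D, and at 123 and 106, 212 and 218, and 116 and 113 CPM in mitotic libraries. Rfc4 shares its 3′ end with Eif4a2 and Rfc5 with Wsb2 on the opposite strand, so their values carry the limit given for Mcm7.

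Among 10 genes of the polymerases, the flap nuclease and the ligase, 5 fell and 1 rose. Of the 2 subunits of polymerase delta among the 57, 1 fell and 1 rose, the latter with TMM scaling and not with spike-in scaling. Pold1, its catalytic subunit, stood at 107 and 132 CPM in asynchronous WT, 208 and 215 in S38A and 212 and 151 in S38D, and at 99.4 and 87.1, 122 and 114, and 88.8 and 89.1 CPM in mitotic libraries, a change of -0.74 (SE 0.087, adjusted p = 5e-06). Pold2, the accessory subunit that holds the complex together, rose from 192 and 186, 178 and 188, and 251 and 191 CPM to 265 and 232, 211 and 219.6, and 277 and 274 CPM in the same order of lines. In every line both mitotic libraries were above both asynchronous ones for Pold2, with a mean change of 0.31 (SE 0.0724, adjusted p = 0.00234) that became 0.14 (adjusted p = 0.169) under spike-in scaling. Lig1, which seals Okazaki fragments, stood at 772 and 939.8 CPM in asynchronous WT, 1764 and 1633 in S38A and 1764 and 1239.8 in S38D, and at 648 and 520.2, 972 and 996, and 567 and 524 CPM in mitotic libraries. Both states were apart in each line, and the mean change was -0.93 (SE 0.0913, adjusted p = 2.45e-06). Pola1, Prim1 and Prim2 of the primase complex fell, with changes of -0.60, -0.26 and -0.42, and Pola2 (-0.09), Pole (0.08) and Pole2 (-0.34) were not called. Fen1, the flap nuclease, had large gaps between replicates, with 39.3 and 211 CPM in asynchronous S38D and 27.4 and 97.2 in mitotic WT, and its change of -0.59 had an SE of 0.489 (adjusted p = 0.381). It overlaps Gm10143 on the opposite strand at its 3′ end, with the limit given for Mcm7.

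**Figure D2:**
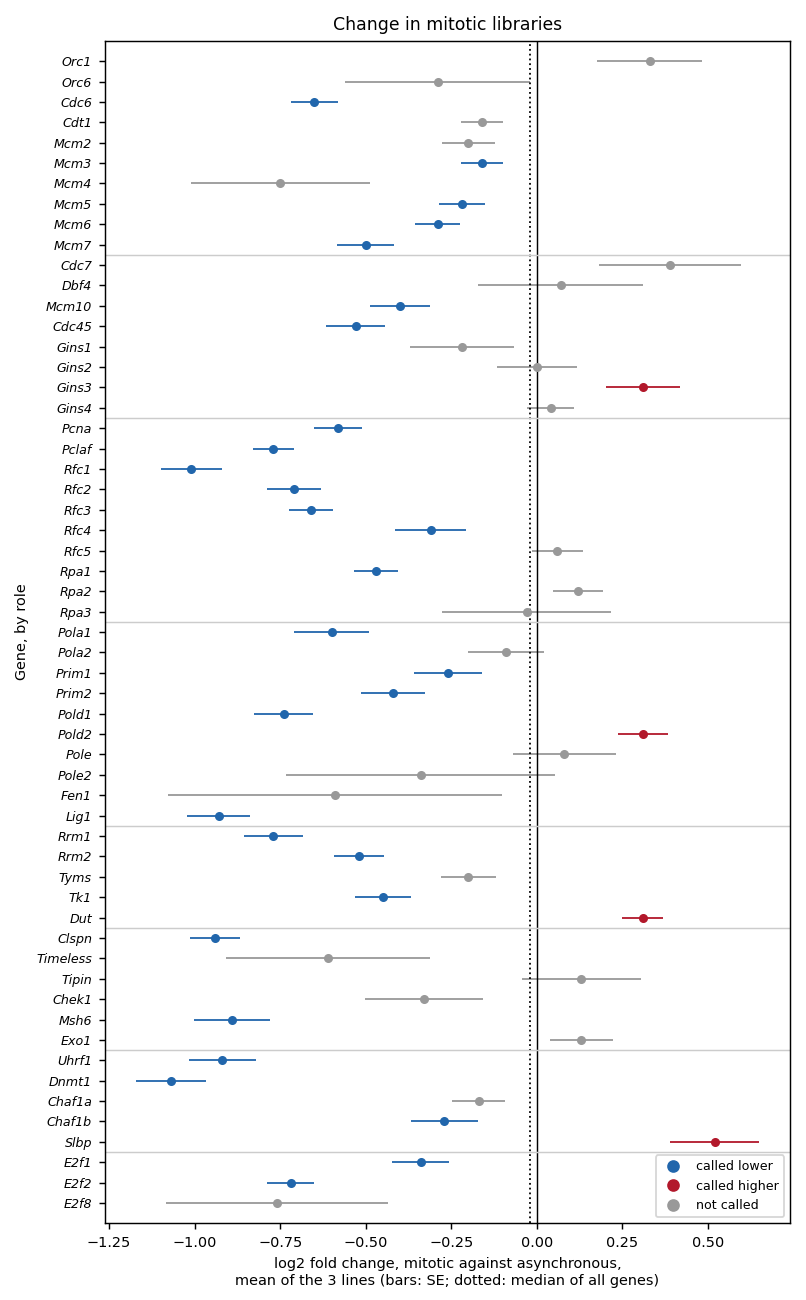
Points give the log2 fold change of each of the 57 genes in mitotic against asynchronous libraries, averaged over the 3 lines, with bars for the SE; blue and red mark genes called lower (29) and higher (4), grey those not called, and the dotted line is the median of all genes (-0.02). Pold1 and Pold2, Rfc1 and Rfc5, and Rpa1 and Rpa2 lie apart within their complexes, and Fen1 has the widest bar (SE 0.489).

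Of 5 nucleotide genes 3 fell and 1 rose. Rrm1 and Rrm2 encode the subunits of ribonucleotide reductase, which makes deoxynucleotides. Rrm1 stood at 56.9 and 64.3 CPM in asynchronous WT, 103 and 109 in S38A and 81.2 and 78.7 in S38D, and at 30.6 and 41, 70.7 and 81.2, and 39.5 and 36.2 CPM in mitotic libraries. Rrm2 stood at 128 and 126, 248 and 246, and 134 and 158 CPM in asynchronous and at 76.1 and 98.7, 174 and 188, and 99.7 and 96.8 CPM in mitotic libraries. In each line the states were apart for both, with mean changes of -0.77 for Rrm1 (SE 0.0856, adjusted p = 2.76e-06) and -0.52 for Rrm2 (SE 0.0743, adjusted p = 3.52e-05). Tk1, the thymidine salvage kinase, fell without overlap: asynchronous libraries lay between 57.3 and 85 CPM and mitotic ones between 45.5 and 55.3 CPM. Tyms, which makes thymidylate, changed by -0.20 (adjusted p = 0.0516) and was called lower with spike-in scaling (-0.38, adjusted p = 0.0051). Dut, which removes dUTP from the nucleotide pool, rose by 0.31 (SE 0.0598, adjusted p = 0.000599). It had 645 and 672 CPM in asynchronous WT, 702 and 651 in S38A and 765 and 831 in S38D, and 858 and 932, 848 and 880.2, and 925 and 824 CPM in mitotic libraries. For Dut the states overlapped in S38D and not in WT or S38A, and spike-in scaling gave 0.13 (adjusted p = 0.278).

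Of 6 checkpoint and repair genes 2 fell and none rose, beside 21.6% and 20.5% of all genes. Clspn stood at 74.5 and 68.6 CPM in asynchronous WT, 107 and 116 in S38A and 117 and 105 in S38D, and at 47.2 and 41.5, 65.3 and 69.5, and 42 and 42.6 CPM in mitotic libraries. It changed by -0.94 (SE 0.0734, adjusted p = 7.54e-08), with called changes of -0.69 in WT, -0.73 in S38A and -1.39 in S38D. No mitotic library of a line reached an asynchronous one of that line, though mitotic S38A and asynchronous WT overlapped. Msh6, a mismatch recognition subunit, changed by -0.89 (SE 0.111, adjusted p = 1.72e-05). It stood at 80.4 and 89.8 CPM in asynchronous WT, 118 and 105 in S38A and 60.3 and 95.5 in S38D, and at 31.7 and 39.7, 64 and 77.6, and 46.8 and 44.8 CPM in mitotic libraries, apart within each line. Msh6 overlaps Fbxo11 on the opposite strand at its 3′ end. Timeless (-0.61, SE 0.299), Tipin (0.13), Chek1 (-0.33) and Exo1 (0.13) were not called. Under spike-in scaling Tipin stood at -0.06 and Exo1 at -0.05, also not called.

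Genes of chromatin copying held both the largest fall and the largest rise among the 57. Dnmt1, the maintenance methyltransferase (chromosome 9, 20907209 to 20959888, GRCm38), stood at 202 and 281 CPM in asynchronous WT, 875 and 706 in S38A and 438 and 322 in S38D. Its mitotic level was 195 and 189 CPM in WT, 344 and 376 in S38A and 119 and 107 in S38D. S38A was highest in both states, and mitotic S38D lowest of the 6 groups, with a mean mitotic change of -1.07 (SE 0.102, adjusted p = 3.8e-06). Uhrf1, which reads hemimethylated DNA and brings DNMT1 to it (chromosome 17, 56303321 to 56323486), stood at 34.4 and 43.6, 99.1 and 100.0, and 65.6 and 54.6 CPM in asynchronous and at 28.1 and 21.7, 52.4 and 56.7, and 27.8 and 22.5 CPM in mitotic WT, S38A and S38D. It changed by -0.92 (SE 0.098, adjusted p = 1.83e-06). Slbp binds the stem loop of histone mRNAs. It stood at 7.04 and 6.52, 9.77 and 13.5, and 10.8 and 14.1 CPM in asynchronous WT, S38A and S38D and at 11.9 and 11.6, 16.1 and 15.1, and 15 and 16.3 CPM in the mitotic libraries. Both mitotic libraries were higher in every line, with a mean change of 0.52 (SE 0.13, adjusted p = 0.00445), which spike-in scaling took to 0.34 (adjusted p = 0.0965). Chaf1b (-0.27) of the histone chaperone CAF-1 fell, and Chaf1a (-0.17, adjusted p = 0.0993) was called lower with spike-in scaling alone (-0.34, adjusted p = 0.00658). Chaf1a overlaps Ubxn6 on the opposite strand at its 3′ end.

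Of the 3 E2F genes both activators fell. E2f2 stood at 147 and 155 CPM in asynchronous WT, 274 and 234 in S38A and 175 and 151 in S38D, and at 121 and 118, 139 and 131, and 92.7 and 81.5 CPM in mitotic libraries. All mitotic libraries lay below all asynchronous ones, a change of -0.72 (SE 0.07, adjusted p = 7.39e-07). E2f1 changed by -0.34 (SE 0.0832, adjusted p = 0.00348), with 203 and 231 CPM in asynchronous and 246 and 229 in mitotic WT, so that WT overlapped. In S38A it stood at 261 and 251 against 199 and 169 CPM and in S38D at 365 and 271 against 179 and 217 CPM, without overlap. E2f8, a repressor, was at 68 and 83 CPM in asynchronous WT and 11.3 and 26.8 in mitotic WT, but at 23.4 and 69.1 in asynchronous S38D, and its mean change of -0.76 had an SE of 0.325 (adjusted p = 0.106).

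Within single lines, 19 of the 57 genes fell and 6 rose in WT (12.7% and 13.4% of all genes), 16 fell and 1 rose in S38A (8.06% and 6.72%), and 26 fell and none rose in S38D (14.8% and 11.6%). Medians were -0.36, -0.14 and -0.45. A fall was called in all 3 lines for 11 genes and in at least 1 line for 31, 20 genes were called in no line, and no gene was called in opposite directions. The shares of all genes with these patterns were not counted, so the pattern counts are not read as a result about the 57 genes. The WT counts rested on few libraries: 11 fell and 0 rose without WT asynchronous replicate 1, 7 and 1 without replicate 2, and 9 and 1 without WT mitotic replicate 1. In S38A 10 fell without any one of its 4 libraries, and its 1 rise (Dut, 0.35) was lost without any of these or without either WT library of each state or S38D mitotic replicate 1 (adjusted p 0.0518 to 0.256). In S38D 22 to 30 fell with any library left out, 17 with only the S38D groups in the fit, and 1 and 3 rose without S38D asynchronous replicates 1 and 2. For the S38D rises, 2 genes had an unadjusted p under 0.05, and neither DESeq2 nor limma-voom called any. Under spike-in scaling 33 fell in WT, 10 in S38A and 27 in S38D, and none rose in any line. The shares of all genes that fell were then 30.8%, 4.9% and 15.4%, and the shares that rose 2.07%, 4% and 5.76%.

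The difference between lines in this mitotic change was tested directly. Between S38A and WT none of the 57 genes was called in either direction by edgeR (0.496% of all genes in each direction, median difference 0.04). At an unadjusted p under 0.05, 7 were higher and 5 lower, limma-voom called none, and DESeq2 called 1 lower. Between S38D and WT 1 gene was called lower and none higher (0.258% and 0.143% of all genes, median difference -0.22). At an unadjusted p under 0.05, 20 were lower and 2 higher. The percentages are for adjusted calls. Shares of all genes at an unadjusted p were not counted in any comparison, so unadjusted counts are not read as a result about the 57 genes. DESeq2 called 4 lower, limma-voom none, and neither called any higher. The gene called by edgeR was Dnmt1, with a mitotic change that was lower in S38D, at a difference of -1.43 (SE 0.249, adjusted p = 0.036). Under spike-in scaling it was -1.05 (adjusted p = 0.14), and the call was lost without any library except S38D asynchronous replicate 2, with an adjusted p of 0.0591 to 0.194. Without that library more of the 57 genes were called, in both directions. The same held in the S38A comparison without either asynchronous S38D library. Such fits leave 1 library in a group, and the shares of all genes called in them are not given here. These added calls are therefore not read as a result about the 57 genes. The medians moved with the scaling. Under spike-in scaling the median difference of the 57 was 0.49 for S38A (all genes 0.46) and 0.08 for S38D (all genes 0.29), so that the sign for S38D turned, with 35 genes positive and 22 negative.

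Mutant lines were then compared with WT in asynchronous cells. In S38A 26 of the 57 genes were higher and none lower (11.7% and 9.54% of all genes), with a median of 0.35 against -0.02. Of the licensing genes 7 of 10 were higher, of the clamp, loader and RPA genes 7 of 10, of the chromatin genes 4 of 5, and of the firing genes 1 of 8. Dnmt1 rose by 1.71 (SE 0.178, adjusted p = 3.8e-05), Uhrf1 by 1.36 (SE 0.167, adjusted p = 3.86e-05) and Cdc6 by 1.07 (SE 0.117, adjusted p = 1.32e-05). Lig1 rose by 0.99 (SE 0.158), Rrm2 by 0.95 (SE 0.128), Rpa1 by 0.82 (SE 0.114) and Rrm1 by 0.81 (SE 0.146). In all of these both S38A libraries were above both WT libraries. This is no separate support, since these genes were called in the same libraries. The share of all genes with such separation between lines was not counted. With any single library left out 18 to 29 were higher. At an unadjusted p under 0.05, 3 were lower. DESeq2 called 1 lower and limma-voom 2, and 4 were lower without either asynchronous S38D library, 1 without either mitotic WT library, and 9 with only the groups compared in the fit.

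These differences depended on the scaling. Asynchronous WT had the smallest spike-in share. Scaled to the spike-ins, 6 of the 26 were still higher (Cdc6, Mcm7, Lig1, Rrm2, Uhrf1 and Dnmt1) and 5 genes were lower (Orc6, Gins1, Rpa3, Pold2 and Chek1). Of all genes 1.93% were then higher and 29.7% lower. The median of the 57 genes became -0.11, while that of all genes became -0.47. Dnmt1 was still higher by 1.23 (adjusted p = 0.00044), Uhrf1 by 0.89 (adjusted p = 0.00473) and Cdc6 by 0.62 (adjusted p = 0.00857). Rpa1 (0.37, adjusted p = 0.0716) and Rrm1 (0.35, adjusted p = 0.167) were not called. The summed level of the 57 genes was 7698 and 8312 CPM in asynchronous WT, 11762 and 11352 in S38A and 10865 and 10218 in S38D. On the spike-in scale it was 9380.4 and 11804, 10837 and 11347, and 9908 and 11413, with overlap of the lines.

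In asynchronous S38D 19 genes were higher and none lower than in WT (4.87% and 4.12% of all genes), with a median of 0.27. None was lower at an unadjusted p under 0.05, with DESeq2 or with limma-voom. The higher genes included Lig1 (0.81), Cdc6 (0.63), Clspn (0.63) and Pclaf (0.55). Both mutant lines were set against the same WT libraries. Of the 57, 1 was higher without WT asynchronous replicate 1 and 11 without replicate 2, 7 were lower without S38D asynchronous replicate 2, and none was higher with only the groups compared. Without WT asynchronous replicate 1 the adjusted p was 0.0604 for Cdc6, 0.0603 for Pclaf and 0.104 for Lig1, and Clspn had 0.0632 without replicate 2. Under spike-in scaling none was higher or lower (0.554% and 12.5% of all genes), and the median was -0.10 against -0.38 for all genes. Set against S38A, 7 genes were lower in S38D and none higher (3.89% and 3.32% of all genes). For higher genes, 4 had an unadjusted p under 0.05, and DESeq2 and limma-voom called none. Rrm2 differed by -0.76 (SE 0.127, adjusted p = 0.00154) and Dnmt1 by -1.06 (SE 0.173, adjusted p = 0.003). The others were Cdc6, Cdt1, Rpa1, Uhrf1 and E2f2, with differences of -0.73 to -0.40. The count of lower genes was 2 and 3 without S38A asynchronous replicates 1 and 2, 14 without S38D asynchronous replicate 1, and 0 with only the groups compared (adjusted p = 0.0763 for Rrm2 and 0.0532 for Dnmt1). It was 3 (Rrm2, Dnmt1 and E2f2) under spike-in scaling, where 1.37% of all genes were lower and 2.46% higher. Without S38D asynchronous replicates 1 and 2, 2 and 3 genes were higher.

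**Figure D3:**
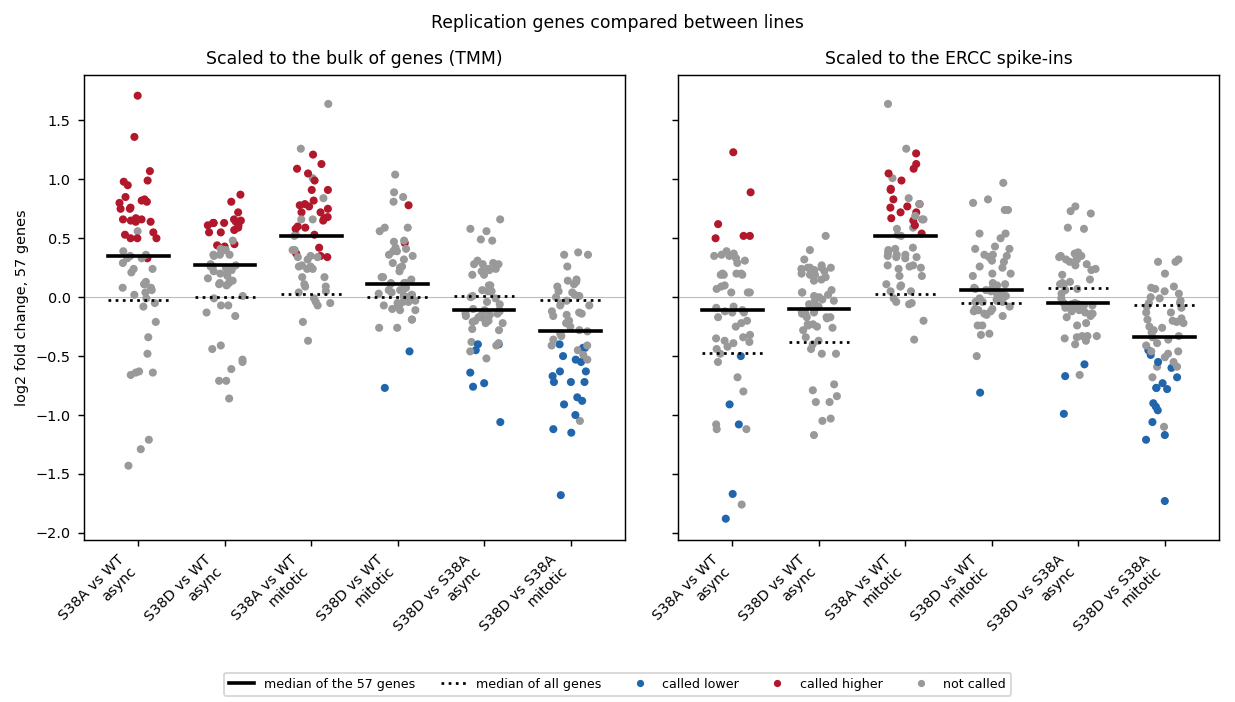
Each point is the log2 fold change of 1 of the 57 genes between the lines and state named below it, with TMM scaling on the left and spike-in scaling on the right; red and blue mark genes called higher and lower, solid bars the median of the 57 and dotted bars the median of all genes. In asynchronous S38A against WT the median of the 57 moves from 0.35 to -0.11 and that of all genes from -0.02 to -0.47, while in mitotic S38A against WT the median of the 57 is 0.52 on both scales.

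In mitotic cells the spike-in shares of the lines were close (3.25% to 3.4%), and the 2 scalings gave like medians. Of the 57 genes 25 were higher in mitotic S38A than in mitotic WT and none lower (8.31% and 8.72% of all genes), with a median of 0.52 against 0.03. Cdc6 rose by 1.21 (SE 0.119, adjusted p = 6.45e-06), Uhrf1 by 1.13 (SE 0.172, adjusted p = 0.000331), Rrm1 by 1.09 (SE 0.15) and Rrm2 by 1.05 (SE 0.13, adjusted p = 5.17e-05). Msh6 rose by 0.99 (SE 0.196), Rpa1 by 0.91 (SE 0.114), Dnmt1 by 0.91 (SE 0.175) and Lig1 by 0.75 (SE 0.158). For each of these both S38A libraries lay above both WT libraries, again no separate support for genes called in the same libraries. By role, 7 of 10 licensing genes, 6 of 10 clamp, loader and RPA genes, 5 of 10 polymerase and ligase genes and none of the 3 E2F genes were higher. Under spike-in scaling 17 were higher and none lower (5.02% and 5.79% of all genes), all 17 among the 25, and the median was 0.52. For lower genes, 1 had an unadjusted p under 0.05, and DESeq2 and limma-voom called none. The count was 16 without WT mitotic replicate 2 or either mitotic S38A library, and 1 gene was lower without either asynchronous S38D library. With TMM scaling, Cdc6, Rpa1, Lig1, Rrm1, Rrm2, Uhrf1 and Dnmt1 were called higher in S38A in both states with any library left out. Under spike-in scaling Rpa1 and Rrm1 were not called in asynchronous cells.

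Between mitotic S38D and mitotic WT few genes were called, 2 higher and 2 lower (1.15% and 3.41% of all genes; median 0.11). Pcna was higher by 0.46 (SE 0.123, adjusted p = 0.0453) and Pola2 by 0.78 (SE 0.199, adjusted p = 0.033), and Dnmt1 was lower, with -0.77 (SE 0.178, adjusted p = 0.0279), as was E2f2, with -0.46 (SE 0.123, adjusted p = 0.045). With single libraries left out these counts ran from 0 to 5 and from 0 to 2, and both were 0 without either mitotic WT or either mitotic S38D library. E2f2 kept its call under 2 of the 12 omissions of a library, those of S38D asynchronous replicate 1 or 2. The count of higher genes was also 0 without WT asynchronous replicate 1 and 1 without WT asynchronous replicate 2 or any single S38A library, and 5 or 4 when S38D asynchronous replicate 1 or 2 was left out. The count of lower genes was also 0 without either mitotic S38A library and 1 without any asynchronous WT or S38A library. Under spike-in scaling Dnmt1 alone was called (-0.81, adjusted p = 0.0314), with 2.77% of all genes lower and 0.372% higher. DESeq2 and limma-voom called no gene higher and 1 lower. Against mitotic S38A, 19 genes were lower in S38D and none higher (10.2% and 7.51% of all genes), with a median of -0.29. Dnmt1 differed by -1.68 (SE 0.18, adjusted p = 7.31e-05), Cdc6 by -1.15 (SE 0.119, adjusted p = 1.05e-05) and Uhrf1 by -1.12 (SE 0.172). Rpa1 differed by -0.91 (SE 0.114). For higher genes, 1 had an unadjusted p under 0.05, and DESeq2 and limma-voom called none. Spike-in scaling left 16 of the 19, with 7.82% of all genes lower and 3.76% higher. The count was 11 without S38A mitotic replicate 2 and 10 without S38D mitotic replicate 2, and 1 gene was higher without either asynchronous S38D library.

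**Figure D4:**
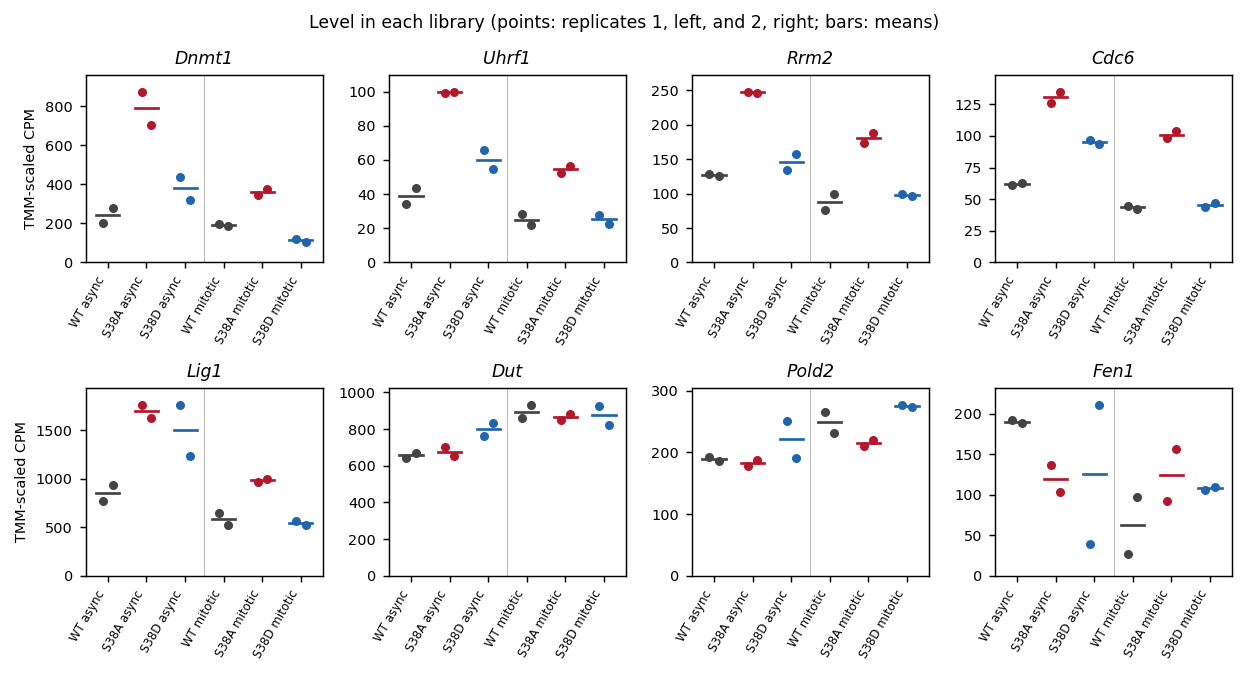
TMM-scaled CPM of 8 genes in each library, with points for the replicates and bars for group means; axes start at 0. Dnmt1, Uhrf1, Rrm2 and Cdc6 are highest in S38A within each state, Dut and Pold2 are higher in mitotic than in asynchronous libraries of WT and S38A, and the replicates of Fen1 lie far apart in asynchronous S38D (39.3 and 211 CPM) and mitotic WT (27.4 and 97.2 CPM).

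Gaps between replicates touched a subset of the genes. In asynchronous S38D 8 of the 57 genes differed by more than 1 on the log2(CPM + 1) scale, beside 7.56% of all tested genes. These were Orc6, Mcm4, Dbf4, Rpa3, Pole2, Fen1, Timeless and E2f8, all of them lower in replicate 1. In mitotic WT 4 of these (Pole2, Fen1, Timeless and E2f8) also differed by more than 1, again lower in replicate 1, beside 3.8% of all tested genes. None of the 57 did so in the other groups. With both of these replicate 1 libraries left out, most calls of the mean mitotic comparison above were kept and others were added. In asynchronous S38A against WT all the genes called higher above were kept and others were added. Orc6, Dbf4, Rpa3, Timeless, Tipin, Chek1 and E2f8 were then lower. This fit leaves 1 library in each of 2 groups, and the shares of all genes called in it are not given here. The added calls are therefore not read as a result about the 57 genes.

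A further 50 replication genes were counted for comparison, from a list of helicase, licensing, polymerase and fork factors outside the 57. Of the 49 tested 17 fell and 10 rose in the mean mitotic comparison, with a median of -0.11, beside 21.6% and 20.5% of all genes. Spike-in scaling made these 23 and 3, beside 31.9% and 9.88% of all genes. Top1, which relaxes DNA ahead of the fork, fell by 1.44 (SE 0.0854, adjusted p = 3.29e-09), and Pold4, the small subunit of polymerase delta, by 0.91 (SE 0.0728). In S38A against WT 11 were higher and 2 lower in asynchronous libraries (11.7% and 9.54% of all genes). In mitotic libraries 9 were higher and 1 lower (8.31% and 8.72%). Under spike-in scaling the asynchronous comparison turned to 1 higher and 7 lower (1.93% and 29.7% of all genes). Its median was -0.17 in place of 0.27, and that of all genes -0.47 in place of -0.02. The mitotic comparison then gave 8 higher and none lower (5.02% and 5.79%). Among 26 genes of G2 and mitosis 14 fell and 1 rose in mitotic libraries, with a median of -0.44, and with spike-in scaling 17 fell and none rose. In asynchronous S38A 15 of them were higher than in WT and none lower (11.7% and 9.54% of all genes). Spike-in scaling took these to 2 and none (1.93% and 29.7%). The median of the 26 genes went from 0.39 to -0.06, and that of all genes from -0.02 to -0.47. Cdc25b, whose product activates CDK1, changed by -1.31 (SE 0.0706), and the microtubule-binding gene Nusap1 by -1.46 (SE 0.0813). The part of cell cycle position in either comparison was not tested.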

How the data were processed

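The 12 libraries of 3′ mRNA sequencing fall into 6 groups of RPL12 line and cell state, with 2 each. The deposited files hold raw counts of reads for 51826 genes and 92 ERCC spike-ins, without normalization. Per the submitters' processing notes, the tools were STAR 2.5.3a, cutadapt 1.12 and bcl2fastq 2.16.0.10, with mm10 as the build. Which program counted the reads, whether by strand and on which annotation, is not given in the sources used here. Symbols came from GENCODE M21 on GRCm38 (51633 identifiers, 99.63%) and promoter sequences from RefSeq (GRCm38.p6).

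Of these genes 10477 passed filterByExpr (groups of samples, minimum count 10). Counts were scaled with TMM and modelled by edgeR 4.0.16 under R 4.3.3, with 1 mean for each group, 6 residual degrees of freedom and robust quasi-likelihood F tests. Each of 12 comparisons had its own Benjamini-Hochberg adjustment over every gene tested, with calls at 0.05. The SE is the log2 fold change divided by the square root of F. The common biological coefficient of variation was 0.143. Replicate numbers were not used as pairs, since they share no stated origin and their differences correlated above 0.1 for 3 of 15 pairs of groups. The 22 alternatives used DESeq2 1.42.0, limma 3.58.1, other scalings and filters, fewer groups, a replicate block, and libraries left out.

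The 57 genes, the further lists, the tests and the rule for named genes were chosen with earlier results of these data known. In each of 8 roles, values in every library were given for the 2 genes with the smallest adjusted p in the mean mitotic comparison, the 1 with the smallest over the mutant comparisons with WT, every gene that rose in mitotic libraries, and up to 6 genes called in the differences of the mitotic change. All 57 could be named by role. Of the further replication and G2/M genes, the 2 with the smallest adjusted p in that comparison were named. Total gene reads of 3432875 to 6587997 per library set the precision of low counts.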

Additional observations from a re-analysis of the deposited data

Results flagged for a closer look

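The mitotic change of Dnmt1 was lower in S38D than in WT, with a log2 difference of -1.43 (SE 0.249, adjusted p = 0.036) in the edgeR test of the difference itself. It lost the call under spike-in scaling, with limma-voom (adjusted p = 0.0785) and without most single libraries. Pold2 stood at 251 CPM in S38D asynchronous replicate 1, far above the other 5 asynchronous libraries, which ranged from 178 to 192 CPM. It was the only such library among 44 sets of 6 libraries checked for single values far from the rest, and chance alone gives about 1 in 20 sets.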

How the results depend on the processing

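Counts of the 57 genes are given as higher/lower. Under spike-in scaling, the mean mitotic comparison went from 4/29 to 0/34, WT from 6/19 to 0/33, S38A from 1/16 to 0/10, S38A against WT from 26/0 to 6/5 and S38D against WT from 19/0 to 0/0 in asynchronous cells. S38D against WT in mitotic cells went from 2/2 to 0/1, S38D against S38A in asynchronous cells from 0/7 to 0/3, and the differences of the mitotic change from 0/0 to 1/0 for S38A and from 0/1 to 0/0 for S38D. With only the groups compared, the mitotic counts were 3/23 in S38A and 0/17 in S38D. S38A against WT gave 30/9 and S38D against WT 0/0 in asynchronous cells, S38D against WT 2/1 in mitotic cells, S38D against S38A 0/0 and 2/24, and the differences 1/4 and 0/0. Without both S38D asynchronous replicate 1 and WT mitotic replicate 1, these were 2/23 and 1/30, then 30/7, 19/0, 2/1, 7/16, 2/24, 4/3 and 0/1. Without a filter, S38D mitotic was 1/27, S38A against WT asynchronous 27/1, S38D against WT mitotic 1/2, S38D against S38A 1/9 and 1/21, and the differences 2/4 and 0/12. A filter at 10 CPM gave 1/26 for S38D mitotic and 1/18 for S38D against S38A mitotic. In asynchronous S38A against WT, DESeq2 gave 24/1, limma-voom 24/2 and robust estimation off 25/1. In mitotic S38D against WT these gave 0/1, 0/1 and 1/1, and DESeq2 size factors 2/1. For the differences DESeq2 gave 0/1 and 0/4, while limma-voom and robust estimation off gave 0/0 for S38D. DESeq2 size factors gave 1/19 for S38D against S38A mitotic. For settings other than spike-in scaling the shares of all genes are not given, so these counts only describe how far the calls moved. The causes were not tested.

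With the replicate number as a block, asynchronous S38A against WT was 25/1, and of 131 calls of the 21 genes shown by library 130 held. The exception was Dnmt1 in asynchronous S38D against WT (adjusted p = 0.0503). The numbers share no stated origin. Of 15 correlations of replicate differences between groups, asynchronous S38D, mitotic WT and mitotic S38A correlated with each other (0.785, 0.59 and 0.548), asynchronous S38A ran opposite to these 3 (-0.398 to -0.36), and the other 9 lay within 0.1 of 0. A difference between replicates was thus shared by 4 of the 6 groups, and its source was not tested.

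Leaving out each library in turn, higher and lower counts ran from 3 to 7 and 24 to 33 in the mean mitotic comparison, 0 to 6 and 7 to 25 in WT, 0 to 1 and 10 to 23 in S38A, and 0 to 3 and 22 to 30 in S38D. They ran from 18 to 29 and 0 to 4 for S38A against WT asynchronous, 1 to 28 and 0 to 7 for S38D, 16 to 29 and 0 to 1 for S38A mitotic, and 0 to 5 and 0 to 2 for S38D mitotic. For S38D against S38A they ran from 0 to 3 and 2 to 14 asynchronous and 0 to 1 and 10 to 24 mitotic, and for the differences 0 to 4 and 0 to 5 (S38A), and 0 to 9 and 0 to 19 (S38D). Such a fit assumes that a lone library varies like the other groups. The shares of all genes called in these fits are not given, so the ranges only describe how far the counts moved. Of the 131 calls, 85 held under spike-in scaling, 44 were lost and 2 turned: Pold2 (-0.05) and Dut (-0.00) in WT mitotic against asynchronous cells. With 2 libraries a group, genes near 10 CPM such as Rpa3, Pole2 and Slbp rest on fewer reads than the others.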
